A study of Mus musculus with 4 samples.

Results

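The genes described here encode the translation initiation factors eIF1 to eIF6 and the elongation factors eEF1 and eEF2, with the kinases and methyltransferases that carry these names, and without the cap-binding eIF4E and eIF4G genes. They were taken from the deposited count table by symbol, as the protein-coding rows that begin with Eif1 to Eif6, Eef1 or Eef2, excluding those that begin with Eif4e or Eif4g. This gave 63 genes of the 28193 rows of the table, of which 16973 are protein-coding. In initiation, eIF2 carries the initiator tRNA to the small ribosomal subunit, eIF3 holds that subunit in the initiation complex, eIF4A unwinds the mRNA leader and eIF1, eIF1A, eIF5 and eIF5B govern start codon choice and the joining of the large subunit. In elongation, eEF1A delivers aminoacyl-tRNA and eEF2 moves the ribosome along. Both steps are regulated in neurons by phosphorylation, with eIF2alpha kinases limiting initiation and the calcium- and calmodulin-dependent kinase eEF2K limiting elongation, a control that has been linked to memory in the hippocampus.

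The RNA was bound to HA-tagged ribosomes of neurons that expressed Fos during 5 h of sleep deprivation on day 0 (fosTRAP-seq). A second deprivation of 5 h followed on day 7 in SD mice only, with NSD mice left undisturbed, so every library comes from neurons tagged by an earlier deprivation, and tissue was taken at ZT5. The mice were male C57BL/6J of 3 to 5 months with an AAV that expressed ERT2-Cre-ERT2 from a c-Fos promoter and an AAV for Cre-dependent HA-Rpl22 from an EF1a promoter, all given 4-hydroxytamoxifen, whereas the labels give the genotype as cFos-Cre:Ribotag and the tissue as dorsal hippocampus. Each library pools the CA1 of 5 mice and each group has 2 libraries, and the labels assign each number, 1 or 2, to a batch with 1 NSD and 1 SD library.

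The libraries held 153511705 to 195910235 estimated counts, of which these genes took 0.526 to 0.567%. Of the 8 marker genes of CA1 pyramidal neurons, all were detected, with a summed level of 6395 and 6760 CPM (counts per 1000000 of the library total, scaled by TMM) in NSD and 6154 and 6623 CPM in SD. Markers of other cells were present too: the 6 oligodendrocyte lineage genes summed to 1425 to 1717 CPM, the 7 interneuron genes to 740.3 to 832.3 CPM, the 6 astrocyte genes to 577.1 to 650.8 CPM, the 5 CA2 and CA3 genes tested to 88.83 to 97.82 CPM, the 6 microglia genes to 69.72 to 89.05 CPM and the 4 dentate granule cell genes to 32.18 to 41.75 CPM. The 7 endothelial genes summed to 43.12 and 61.18 CPM in NSD and 34.65 and 22.25 CPM in SD, with both SD libraries below both NSD libraries. Every marker gene tested had to exceed 5 counts in all 4 libraries, so its presence in each follows from the filter. The part of these other cells in the results below was not tested.

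Several of these genes have processed pseudogenes, intronless copies of their mRNA, that drew a large share of the counts. The coding stretches below, from GENCODE transcripts on GRCm39, show how little the copies differ from 3 of the genes, and how much more a true paralog differs. Capitals in the first line of each set mark every base at which any of the other lines differs, and capitals in the other lines mark the differing base itself.
Eif4a1: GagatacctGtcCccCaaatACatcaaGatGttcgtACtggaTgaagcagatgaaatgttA
Eif4a-ps4: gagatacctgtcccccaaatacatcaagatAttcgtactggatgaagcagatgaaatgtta
Eif4a2: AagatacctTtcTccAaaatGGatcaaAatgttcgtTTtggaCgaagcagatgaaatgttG
Eif2s3x: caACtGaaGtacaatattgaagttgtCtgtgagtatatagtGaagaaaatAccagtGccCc
Gm2223: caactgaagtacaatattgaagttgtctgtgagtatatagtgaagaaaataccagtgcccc
Eif2s3y: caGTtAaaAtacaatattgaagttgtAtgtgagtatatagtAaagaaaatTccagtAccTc
Eef1g: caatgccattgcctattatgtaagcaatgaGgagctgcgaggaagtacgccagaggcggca
Gm4366: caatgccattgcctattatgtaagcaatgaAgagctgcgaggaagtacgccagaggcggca
The first set covers coding bases 504 to 564 of Eif4a1 (chr11:69557762-69563249, minus strand) and is centred on G534A, counted from the first base of the start codon, the only difference from the pseudogene Eif4a-ps4 (chr1:60743091-60744308) in 1218 coding bases. Over 1189 aligned coding bases Eif4a2 (chr16:22926194-22932886) differed from Eif4a1 at 245. The second set covers coding bases 679 to 739 of Eif2s3x (chrX:93232313-93256468, minus strand), which Gm2223 (chrX:32943124-32944473) matches without a difference over 1347 coding bases, while its Y-linked counterpart Eif2s3y (chrY:1010543-1028847) differs at 194 of 1416. The third set covers coding bases 216 to 276 of Eef1g (chr19:8944405-8955843) around G246A, 1 of 5 differences from Gm4366 (chr7:116423745-116425086) in 1311 coding bases.

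Counts of these near-identical rows depend on how the estimation divided reads that fit both. Eif4a-ps4 received 15486 and 17154 counts in NSD and 15924 and 19286 in SD. The intron-containing gene Eif4a1 received 9340 and 10084 counts in NSD and 10380 and 11024 in SD, so the pseudogene row was the larger in all 4 libraries. Gm4366 received 130.74% of the count of Eef1g, and Gm2223 received 41.96% of the count of Eif2s3x. In all, 64 of 3682 processed pseudogenes in the table matched 20 of the 63 genes, and for 11 genes the pseudogenes together held over 10% of the count of the gene. Neither called gene, Eif5b or Eif3a, had such a pseudogene. The paralogs Eif3j1 and Eif3j2 align with 99.4% identity, so their individual counts are uncertain as well.

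**Figure D1:**
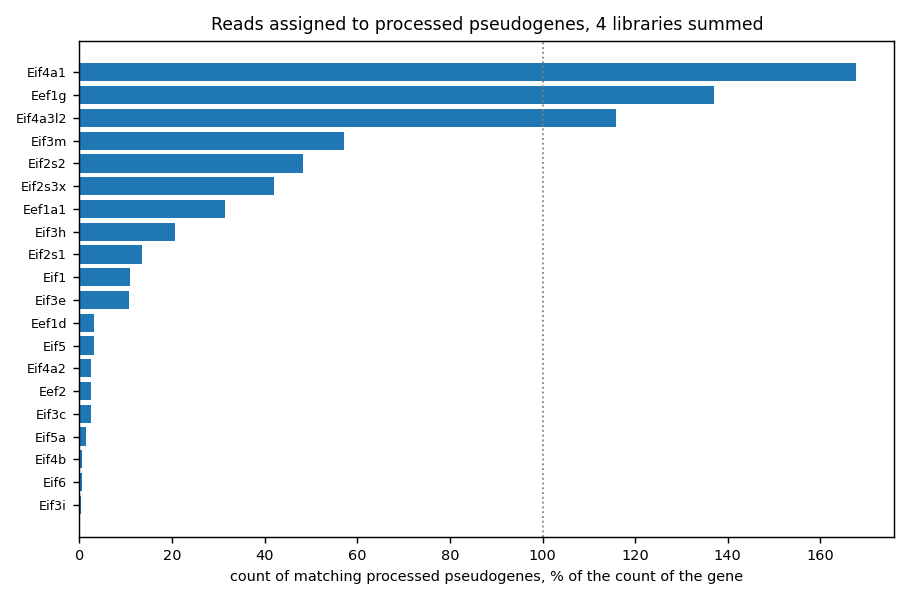
Count of all matching processed pseudogenes as a percentage of the count of the gene they copy, summed over the 4 libraries, for the 20 genes with a match; the dotted line is at 100%. Eif4a1, Eef1g and Eif4a3l2 lie beyond that line at 167.6%, 137.0% and 115.9%.

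The level of each gene, as the mean CPM over all 4 libraries per kilobase of its transcript, set out the order within this machinery. Elongation factors came first, with Eef1a1 at 533, Eef2 at 378 and Eef1a2 at 327 CPM per kb. The helicase gene Eif4a2 (129), Eif5a (101), Eif1 (85.4) and the eIF4A cofactors Eif4h (82.9) and Eif4b (60.4) followed, in the same unit. Among eIF3 subunits the range was 2.61 (Eif3j2) to 31.5 CPM per kb (Eif3c), and the median over the 62 genes tested was 10.9 CPM per kb. The eIF2alpha kinases ranged from 3.49 (Eif2ak2) to 14.1 CPM per kb (Eif2ak1), and the methyltransferases of eEF1A and eEF2 were all below 4 CPM per kb. The lowest gene tested, Eif1ad3, was at 0.0276 CPM per kb.

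**Figure D2:**
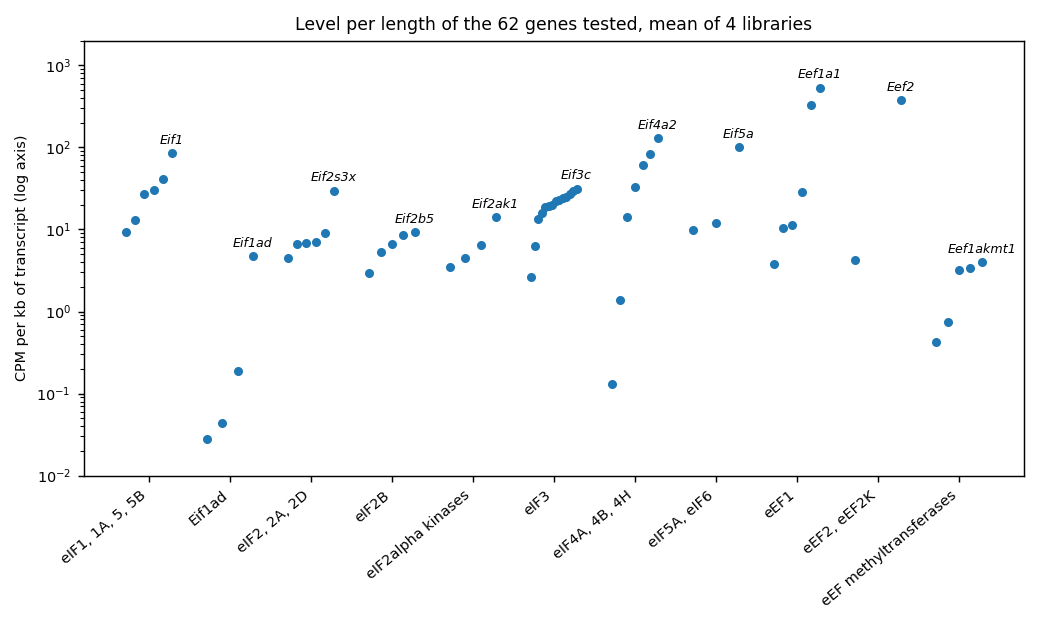
Mean CPM of the 4 libraries per kilobase of transcript (log axis) for the 62 genes tested, 1 point per gene, grouped by role on the horizontal axis, with the highest gene of each group named. The elongation factor genes Eef1a1 and Eef2 are the highest at 533 and 378 CPM per kb.

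The comparison of SD with NSD asked which of these mRNAs were more or less abundant on the tagged ribosomes after the repeated deprivation. In edgeR's quasi-likelihood test over 22338 genes, 2 of the 62 genes tested were higher in SD and 0 were lower, where a call required that the Benjamini-Hochberg adjusted p be under 0.05 and that the groups differ by more than 1.2-fold. The genes were Eif5b and Eif3a, each about 37% higher. They make up 3.23% of the genes tested, against 0.952% of 15551 protein-coding genes and 0.77% of all genes called higher, and 0.54% and 2.33% were called lower. At an unadjusted p under 0.05, 9 of the 62 genes passed (Eif5b, Eif3a, Eif5a2, Eif2s3y, Eif1ax, Eif2s3x, Eef1g, Eif2d and Eef1akmt1). This is 14.5%, no more than the 14.6% of protein-coding genes and 19.1% of all genes at that level. In comparison, DESeq2 called 3 higher and 0 lower, where it called 3.0% and 5.8% of all genes and 3.92% and 1.79% of protein-coding genes. More or less RNA of a gene in such a pull-down cannot be told apart from more or fewer tagged cells that express it.

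Most other factors were close to level between the groups. The median log2 fold change was 0.044, against 0.018 for all protein-coding genes and -0.016 for all genes tested, with 38 genes above and 24 below 0. The order against protein-coding genes turned without the NSD library of batch 1 (0.025 against 0.035) and without the SD library of batch 2 (0.018 against 0.028). For 33 genes (53.2%, against 41.6% of protein-coding genes and 33.8% of all genes) the log2 fold change was within 0.1 of 0. For 24 genes (38.7%, against 21.2% and 15.1%) the whole 95% confidence interval lay within a fold change of 1.2. Both SD libraries were above both NSD libraries for 17 genes (27.4%, against 22.0% of all genes and 26.5% of protein-coding genes) and below them for 10 genes (16.1%, against 27.5% and 20.0%). Eef1akmt3, a lysine methyltransferase of eEF1A, had too few counts for the test, at 10 and 14 in NSD and 19 and 0 in SD.

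**Figure D3:**
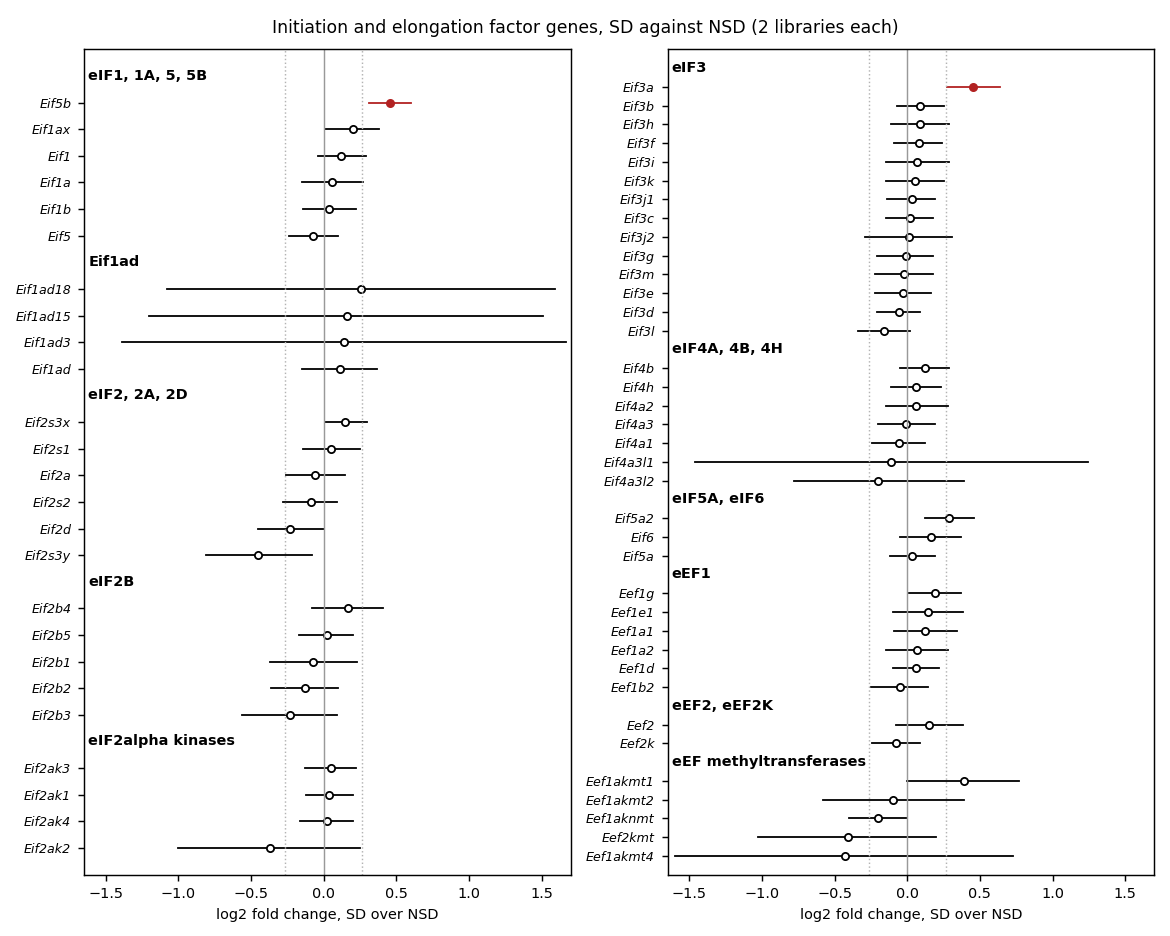
Log2 fold change of SD over NSD (horizontal axis) with its 95% confidence interval from edgeR for the 62 genes tested, grouped by role, with filled red points for called genes and dotted lines at a fold change of 1.2 in either direction. Only Eif5b and Eif3a are called, and all other eIF3 subunits lie between -0.16 and 0.09.

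With the batch number as a block, which pairs NSD and SD libraries of the same batch, 3 genes were higher and 2 were lower. Eif5a2 joined Eif5b and Eif3a, and Eif2s3y and Eif2ak2 were lower. In that fit 2.99% of all genes and 3.77% of protein-coding genes were called higher, and 8.47% and 3.29% were called lower. The pairing rests on the labels, and same-numbered libraries deviated together with a correlation of 0.178 over all genes and 0.121 over protein-coding genes.

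Eif5b encodes the GTPase that joins the ribosomal subunits at the end of initiation. It was at 60.8 and 61.8 CPM in NSD and 85.4 and 82.7 CPM in SD. The NSD libraries were almost equal, and both SD libraries stood well above them. The log2 fold change was 0.46 (SE 0.064, 95% confidence interval 0.31 to 0.60, edgeR adjusted p = 0.0328, and 0.000172 with the block), with differences of 0.49 in batch 1 and 0.42 in batch 2. The call was lost when genes were filtered by filterByExpr of edgeR (adjusted p = 0.0628). Eif5b lies at chr1:38037091-38094660 on GRCm39, and 1959 of its exon bases are shared with Rev1 on the opposite strand, a DNA repair gene with 35.7% of the count of Eif5b. Whether counting used the strand is not given in the sources used here. Rev1 was at 26.9 and 23.6 CPM in NSD and 26.5 and 27.4 CPM in SD, which gives 0.09 on the log2 scale (adjusted p = 0.643 by edgeR).

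The factors that act with eIF5B at the start codon differed less. Eif1ax, the X-linked eIF1A gene, was at 121 and 138 CPM in NSD and 147 and 150 CPM in SD, and the groups did not overlap. Its log2 fold change was 0.20 (SE 0.081, edgeR adjusted p = 0.231, and 0.0497 with the block, with a fold change under 1.2). Its autosomal counterpart Eif1a was at 25.6 and 30.1 CPM in NSD and 28.6 and 29.6 CPM in SD (log2 fold change 0.06), so both SD values lay between the NSD values. Eif1, which guards start codon fidelity, was at 103 and 113 CPM in NSD and 117 and 118 CPM in SD (0.12, adjusted p = 0.412 by edgeR). Eif1b was at a log2 fold change of 0.04 and Eif5, the GTPase-activating protein of eIF2, at -0.07. The eIF1A domain gene Eif1ad was at 12.3 and 10.9 CPM in NSD and 13.4 and 11.6 CPM in SD (0.11), with overlapping groups, and Eif1ad3, Eif1ad15 and Eif1ad18 were too low for a firm value, with log2 fold changes of 0.14 to 0.26 and standard errors of 0.58 to 0.67.

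Eif3a encodes the largest subunit of eIF3, a scaffold of the complex. Its level was 78.2 and 84.9 CPM in NSD and 118 and 105 CPM in SD. Both SD libraries exceeded both NSD libraries, with the SD library of batch 1 the highest of the 4. The log2 fold change was 0.45 (SE 0.081, 95% confidence interval 0.27 to 0.64, edgeR adjusted p = 0.0384, and 0.000758 with the block), and the difference was 0.60 in batch 1 and 0.31 in batch 2. Without the NSD library of batch 1 the log2 fold change was 0.43, the edgeR adjusted p was 0.0568 and the call was lost. It was lost as well under filterByExpr (edgeR adjusted p = 0.0628) and without a count filter (adjusted p = 0.0507). The gene lies at chr19:60749555-60779096 on the minus strand and shares no exon base with another gene of the table.

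The other 13 eIF3 genes were tested too, and none was called with or without the block. Their log2 fold changes ran from -0.16 (Eif3l) to 0.09 (Eif3b and Eif3h), with 12 of 13 within 0.1 of 0. For 9 of them the 95% confidence interval lay within a fold change of 1.2. Their summed level was 481.1 and 519.0 CPM in NSD and 500.6 and 511.8 CPM in SD, so the groups overlapped. Eif3c, the subunit with the highest level per kilobase, was at 101 and 110 CPM in NSD and 104 and 110 CPM in SD (log2 fold change 0.02). Eif3j1 was at 32.9 and 34.8 CPM in NSD and 34.3 and 34.6 CPM in SD (0.03), and Eif3j2 was at 6.47 and 5.90 CPM in NSD and 6.40 and 6.03 CPM in SD (0.01). 

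**Figure D4:**
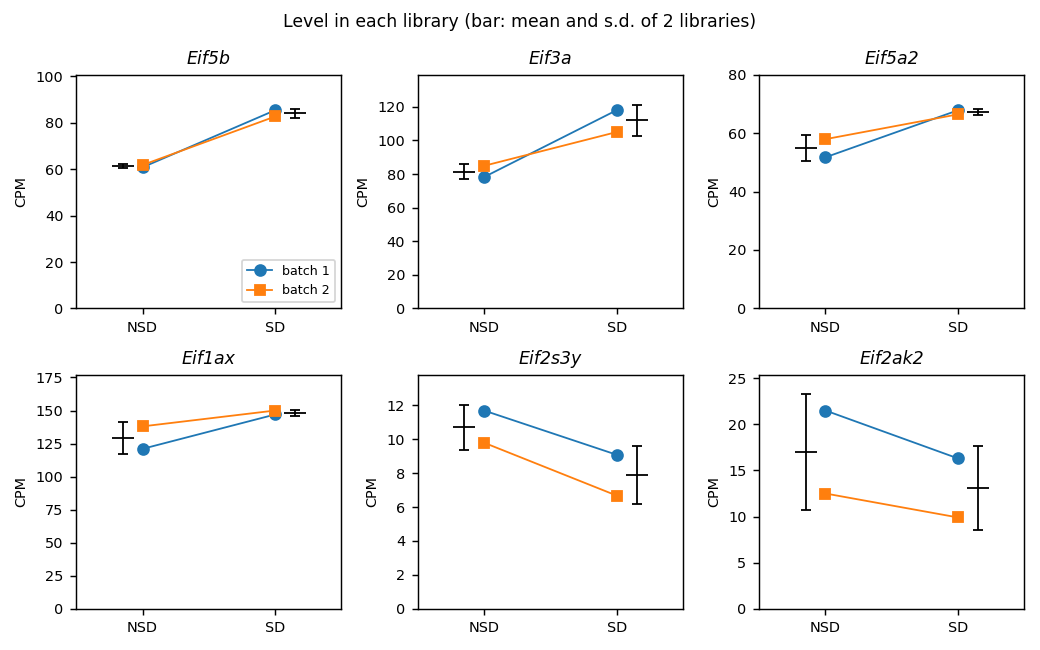
CPM (vertical axis, from 0) in each NSD and SD library for 6 genes, with lines joining the libraries of the same batch and black bars for the mean and s.d. of the 2 libraries. Eif5b and Eif3a are higher in SD in both batches, whereas Eif2ak2 is lower in both batches but differs more between batches.

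The eIF2 complex has 3 subunits, and its gamma subunit is encoded on both sex chromosomes. Eif2s3x was at 101 and 104 CPM in NSD and 115 and 112 CPM in SD, without overlap (log2 fold change 0.15, SE 0.065, edgeR adjusted p = 0.245). Eif2s3y was at 11.7 and 9.80 CPM in NSD and 9.09 and 6.68 CPM in SD, so both SD libraries were the lower. The log2 fold change was -0.45 (SE 0.16, edgeR adjusted p = 0.175, and 0.00883 with the block), and it ran from -0.68 to -0.23 when single libraries were left out. The ratio of Eif2s3x to Eif2s3y was 8.65 and 10.6 in NSD and 12.7 and 16.8 in SD. Of other Y-linked genes, chosen after their values were seen, Ddx3y was at 35.0 and 35.5 CPM in NSD and 34.5 and 35.7 CPM in SD (edgeR adjusted p = 0.983), Kdm5d was at a log2 fold change of -0.12 and Uty at -0.01, while the sparse Uba1y was at -1.94 (edgeR adjusted p = 0.0959, and 0.0479 with the block). The alpha and beta subunit genes Eif2s1 and Eif2s2 were at 0.05 and -0.09, both within 0.1 of 0.

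Eif2a and Eif2d encode proteins that can bring initiator tRNA to the ribosome apart from eIF2. Eif2d was at 15.5 and 14.4 CPM in NSD and 13.3 and 12.3 CPM in SD, so the groups did not overlap (log2 fold change -0.23, SE 0.096, edgeR adjusted p = 0.252). Rassf5, on the opposite strand with 2245 shared exon bases and 232.3% of its count, was at a log2 fold change of 0.25 (adjusted p = 0.105 by edgeR). Eif2a was at -0.06. The 5 genes of eIF2B, the exchange factor that recharges eIF2 and the target of its phosphorylated form, ranged from -0.23 (Eif2b3) to 0.17 (Eif2b4), with 0 called with or without the block. Eif2b5, the catalytic subunit, was at 22.9 and 23.9 CPM in NSD and 22.7 and 24.5 CPM in SD (0.02), with the SD values on either side of the NSD values.

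Of the 4 kinases that phosphorylate eIF2alpha, 3 were nearly the same in both groups. Eif2ak1, the haem-regulated kinase HRI, was at 57.6 and 62.3 CPM in NSD and 60.7 and 63.0 CPM in SD (log2 fold change 0.04). Eif2ak3, the endoplasmic reticulum kinase PERK, was at 28.2 and 29.9 CPM in NSD and 29.1 and 30.9 CPM in SD (0.05). Eif2ak4, the amino acid sensor GCN2, was at 23.7 and 23.3 CPM in NSD and 22.8 and 24.9 CPM in SD (0.02). For all 3 the 95% confidence interval lay within a fold change of 1.2, the widest being -0.16 to 0.20 for Eif2ak4.

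Eif2ak2, the double-stranded RNA kinase PKR, varied more between batches than between groups. It was at 21.5 and 12.5 CPM in NSD and 16.3 and 9.90 CPM in SD. Both batch 1 libraries were above both batch 2 libraries, and within each batch the SD library was the lower, by 0.39 in batch 1 and 0.34 in batch 2 on the log2 scale. The log2 fold change was -0.37 (SE 0.27, edgeR adjusted p = 0.536), and with the block it was -0.36 (adjusted p = 0.00932). Without the NSD library of batch 1 the value was 0.10 and without the SD library of batch 1 it was -0.78. In the block fit 6 of the 7 endothelial markers were called lower as well, and 4 of the 8 CA1 markers, Man1a, Fibcd1, Neurod6 and Wfs1, at -0.41 to -0.35 in the fit without the block. Their part in the values of Eif2ak2 and Eif2s3y was not tested.

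**Figure D5:**
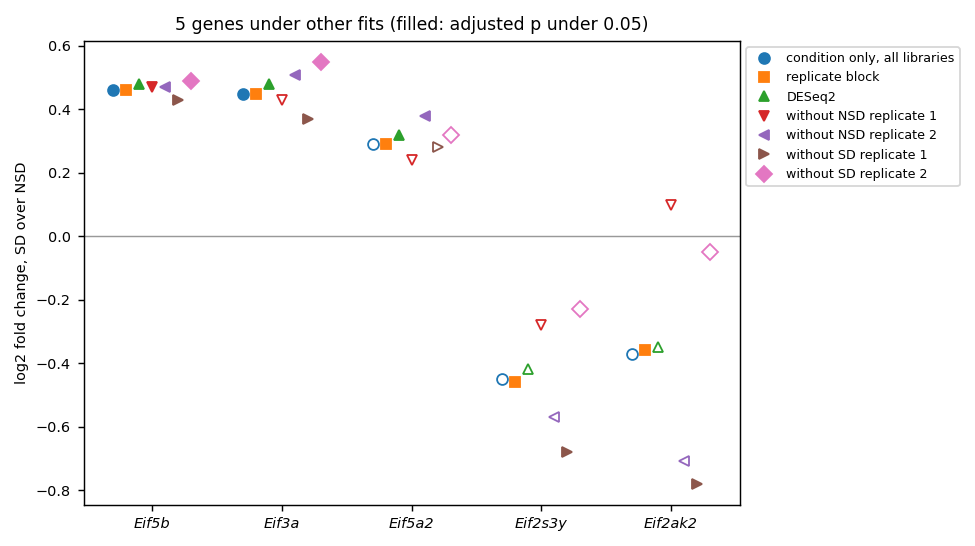
Log2 fold change of SD over NSD (vertical axis) for 5 genes in the edgeR fit with condition only, with the batch block, in DESeq2 and with each library left out, with filled symbols where the adjusted p was under 0.05. Eif5b stays between 0.43 and 0.49, whereas Eif2ak2 ranges from -0.78 to 0.10.

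No gene of the eIF4A helicases and their cofactors was called. Eif4a1 was at 56.3 and 64.2 CPM in NSD and 57.4 and 58.3 CPM in SD (log2 fold change -0.06), and Eif4a2, the paralog typical of brain, was at 279 and 319 CPM in NSD and 298 and 327 CPM in SD (0.06). The groups overlapped for both. The ratio of Eif4a1 to Eif4a2 was 0.202 and 0.201 in NSD and 0.193 and 0.178 in SD, and it leaves out the reads assigned to Eif4a-ps4. Eif4b and Eif4h, which stimulate the helicase, were at 0.12 and 0.06, and Eif4a3, the helicase of the exon junction complex, was at -0.01. Its relatives Eif4a3l1 and Eif4a3l2 were at -0.11 and -0.20 with standard errors of 0.59 and 0.26, and Eif4a3l2 was at -0.03 once the counts of its pseudogene were added.

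Eif5a and Eif5a2 encode the hypusine-bearing factor that helps ribosomes through difficult peptide bonds. The main form Eif5a was at 133 and 140 CPM in NSD and 141 and 139 CPM in SD (log2 fold change 0.03). Eif5a2 was at 51.7 and 57.9 CPM in NSD and 67.8 and 66.4 CPM in SD, and the groups did not overlap. Its log2 fold change was 0.29 (SE 0.075, 95% confidence interval 0.12 to 0.46), and the adjusted p was 0.0752 in edgeR, 0.00688 with the block and 0.00627 in DESeq2. The ratio of Eif5a to Eif5a2 was 2.58 and 2.42 in NSD and 2.08 and 2.09 in SD. Eif6, which keeps the large subunit from joining too early, was at a log2 fold change of 0.16 (adjusted p = 0.400 by edgeR).

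None of the elongation factor genes was called. Eef1a1 was at 891 and 937 CPM in NSD and 995 and 998 CPM in SD (log2 fold change 0.12, SE 0.093, edgeR adjusted p = 0.548). Eef1a2, the form of mature neurons and muscle, was at 638 and 696 CPM in NSD and 670 and 725 CPM in SD (0.07), with overlap, and the ratio of Eef1a1 to Eef1a2 was 1.40 and 1.35 in NSD and 1.48 and 1.38 in SD. Eef1g, a subunit of the eEF1B exchange complex, was at 45.9 and 52.6 CPM in NSD and 57.0 and 55.3 CPM in SD (0.19, edgeR adjusted p = 0.247). The other exchange subunits Eef1b2 and Eef1d were at -0.05 and 0.06, and Eef1e1, a part of the multi-tRNA synthetase complex, was at 0.14.

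Eef2, the translocase, was at 1070 and 1150 CPM in NSD and 1190 and 1270 CPM in SD, with both SD values the higher (log2 fold change 0.15, SE 0.10, edgeR adjusted p = 0.504). Its inhibitory kinase gene Eef2k was at 29.7 and 28.4 CPM in NSD and 27.7 and 27.3 CPM in SD, with both SD values slightly the lower (-0.08, adjusted p = 0.657 by edgeR). The 7 genes of eEF1 and eEF2, Eef1e1 included, summed to 2711 and 2906 CPM in NSD and 2978 and 3119 CPM in SD. The SD mean of 3049 ± 99.5 CPM was 1.09 times the NSD mean of 2808 ± 138 CPM (± s.d. over n = 2 libraries each, two-sided exact permutation p = 0.333, the smallest that 2 libraries against 2 can give).

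None of the methyltransferases that modify eEF1A and eEF2 was called. Eef1akmt1 was at 2.89 and 3.16 CPM in NSD and 3.92 and 3.99 CPM in SD, without overlap (log2 fold change 0.39, SE 0.17, edgeR adjusted p = 0.257). Eef1aknmt was at 15.5 and 16.1 CPM in NSD and 13.7 and 13.8 CPM in SD, also without overlap but in the other direction (-0.20, SE 0.088, edgeR adjusted p = 0.264). Eef1akmt2 was at -0.10, Eef2kmt at -0.41 and Eef1akmt4 at -0.43, with standard errors of 0.21, 0.27 and 0.51. In batches 1 and 2 the differences were 0.24 and -0.48 for Eef1akmt2, -0.03 and -0.77 for Eef2kmt, and -1.13 and 0.57 for Eef1akmt4. Eef2kmt shares 4804 exon bases with Alg1 and Eef1akmt4 shares 748 with Camk2n2, each on the opposite strand, and these neighbours held 608.3% and 8068.8% of their counts.

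The pseudogene rows were added to the genes they copy to see whether the division of reads bore on the comparison, an analysis chosen after the data had been seen. The same genes were called, Eif5b and Eif3a, and with the block the same 5. Eif4a1 was then at -0.06 on the log2 scale (adjusted p = 0.783 by edgeR), Eef1g at 0.18 (0.200) and Eif2s3x at 0.17 (0.191), each within 0.02 of its value without the pseudogenes. Of the 11 genes with over 10% of their count in pseudogenes, Eif4a3l2 moved the most, from -0.20 to -0.03, and Eif2s2 moved from -0.09 to -0.03. The other 9 moved by 0.04 or less.

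Eif5b and Eif3a, with the nearly called Eif5a2, have long transcripts for this group. Their transcripts measured 7797, 5140 and 5027 bases within the span of the gene in the table, the length used here. The other genes over 5000 bases by that measure were Eif1ax (5172 bases) at a log2 fold change of 0.20, Eif3j1 (5413 bases) at 0.03, Eif2ak4 (5212 bases) at 0.02 and Eef2k (6580 bases) at -0.08. The full transcripts of Eef1a2 (13742 bases), Eef2kmt (7096 bases) and Eif5 (5213 bases), at 0.07, -0.41 and -0.07, also exceed 5000 bases but count as shorter here. With a cut at 5000 bases, set after the values were seen, 2 of the 7 longer genes and 0 of the 55 shorter ones were called higher, a split that the choice of the cut fixes. Among all protein-coding genes tested, 2.49% of those of 5000 bases or more were called higher and 0.531% of the shorter ones, and with the block 8.21% and 2.57%. Across the 62 genes, which are not independent replicates, the Spearman correlation of transcript length with the log2 fold change was 0.11, against 0.15 across protein-coding genes, and that of GC content was -0.10 and -0.02.

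The promoters of the called genes were read from RefSeq, on GRCm38.p6, as the 150 bases before the start, printed because these were the members that rose. Capitals mark any match on either strand to 4 motifs, TGACGTCA (the CRE, bound by CREB), CACGTG (an E-box), GGGCGG (a GC box) and CCGGAAGT (an ETS site). No motif holds another.
Eif5b, chr1:37997860-37998009, plus strand: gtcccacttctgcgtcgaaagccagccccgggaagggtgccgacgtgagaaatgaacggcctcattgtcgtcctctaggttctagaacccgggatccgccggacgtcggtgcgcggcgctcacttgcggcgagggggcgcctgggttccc
Eif3a, chr19:60790694-60790843, minus strand: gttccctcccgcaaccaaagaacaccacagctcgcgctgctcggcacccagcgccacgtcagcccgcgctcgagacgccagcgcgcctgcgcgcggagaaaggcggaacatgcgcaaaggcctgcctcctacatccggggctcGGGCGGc
The Eif5b stretch holds none of the 4 motifs and that of Eif3a holds a GC box. The full windows in RefSeq run from 250 bases before to 50 after the start and could be matched for 48 of the 63 genes. The E-box was present in 12 of these 48 (25.0%, against 8.09% of 27025 genes), the GC box in 36 (75.0%, against 38.2%), the ETS site in 8 (16.7%, against 4.31%) and the CRE in 1 (2.08%, against 2.03%). Eif3a has an E-box that begins at base 23 of its transcript and Eef2 has the CRE from base 3, shown here with the motif in capitals.
Eif3a, chr19:60790654-60790683, minus strand: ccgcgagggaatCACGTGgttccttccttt
Eef2, chr10:81176622-81176651, plus strand: aggccgggcgtTGACGTCAgcggtctcttc
A match of letters is a description of the sequence, and of the 12 genes with an E-box only Eif3a was called without the block.

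Related genes of the translation apparatus were read from lists for comparison. Their counts, from edgeR, stand against 0.77% of all genes called higher and 2.33% called lower without the block, 2.99% and 8.47% with it, and 19.1% at an unadjusted p under 0.05. The list genes are protein-coding, and for all protein-coding genes these shares were 0.952% and 0.54%, 3.77% and 3.29%, and 14.6%. Of the 9 cap-binding genes tested, 1 was higher and 0 were lower with and without the block, and 4 had an unadjusted p under 0.05. The called gene was Eif4ebp2, an eIF4E inhibitor prominent in brain, at 82.5 and 75.4 CPM in NSD and 101 and 99.8 CPM in SD (log2 fold change 0.35, SE 0.070, edgeR adjusted p = 0.0424), and the next by p was Eif4e2 at 0.23 (adjusted p = 0.163 by edgeR).

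Of the 13 regulators and targets of the integrated stress response, the pathway downstream of the eIF2alpha kinases, 0 were called in either direction, with 4 at an unadjusted p under 0.05, and with the block 2 were higher. These were Atf4, its main transcription factor, at 85.8 and 92.4 CPM in NSD and 107 and 108 CPM in SD (0.27, edgeR adjusted p = 0.0698, and 0.00557 with the block), and Dnajc3, an inhibitor of these kinases, at 39.7 and 45.8 CPM in NSD and 52.9 and 51.5 CPM in SD (0.29, edgeR adjusted p = 0.0962, and 0.0113 with the block). The second smallest p was that of Ppp1r15b, which directs eIF2alpha dephosphorylation, at 0.25 on the log2 scale (adjusted p = 0.073 by edgeR). Dnajc3 is named in the paper, from its DESeq2 calls, as higher after deprivation.

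In the mTORC1 and S6 kinase branch, which acts on eIF4B and eEF2K, 0 of 12 genes were called, with 4 at an unadjusted p under 0.05, and the block added 1 higher and 1 lower. The higher was the S6 kinase family gene Rps6ka2, at 67.1 and 59.3 CPM in NSD and 76.9 and 80.2 CPM in SD (0.31, edgeR adjusted p = 0.0689). The lower was Rps6kb2, at 8.99 and 6.17 CPM in NSD and 5.20 and 3.82 CPM in SD (-0.75, edgeR adjusted p = 0.0982, and 0.00135 with the block). Tsc1, a brake on mTORC1, was at 0.26 (adjusted p = 0.0783 by edgeR). The paper, which called genes with DESeq2, names Tsc1 and Rps6ka2 among those higher after deprivation.

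The remaining lists had no call without the block. Of 7 mitochondrial factors 1 was lower with the block, the elongation factor homologue Guf1, at 16.7 and 13.8 CPM in NSD and 10.8 and 10.6 CPM in SD (-0.51, edgeR adjusted p = 0.0534, and 0.00304 with the block), and Tufm was next at 0.09. Of 7 selenocysteine and poly(A)-binding cofactors 1 was higher with the block, Paip2b, at 34.4 and 33.7 CPM in NSD and 41.0 and 41.0 CPM in SD (0.27, edgeR adjusted p = 0.0683), followed by Pabpc1 at 0.15. None of 9 termination, recycling and reinitiation factors was called in either fit, and Mcts2 (-0.46) and Gspt1 (0.13) had the smallest p. Nor was any of the 9 enzymes that make hypusine on eIF5A or diphthamide on eEF2, with Dph7 (-0.17) and Dph3 (0.12) first by p. The count at an unadjusted p under 0.05 was 1 in the mitochondrial list, 1 in the cofactor list and 0 in the latter lists.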

How the data were processed

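The authors aligned the reads with STAR to mm39 and assigned them to Ensembl genes with the expectation-maximization model of Partek, per the paper and the submitters' processing notes. The table as deposited holds estimated counts without normalization, and 55.6% of rows hold a value that is not whole. After rounding, the 22338 genes that exceeded 5 counts in all 4 libraries entered edgeR 4.0.16 (R 4.3.3), with TMM factors and a quasi-likelihood test for condition alone, and p-values were adjusted by Benjamini-Hochberg across these genes. Calls required p below 0.05 after adjustment and more than a 1.2-fold difference. CPM values use the TMM factors. Alternatives were a block on the batch number, DESeq2 1.42.0, its size factors in edgeR, other filters and fold thresholds, and each library left out. The fitting code was run on simulated counts only to check the sign and size of set fold changes. Those counts had less spread between libraries than these data, so that check does not bear on how reliable the calls are. Pseudogenes were matched to the genes with BLAST 2.17.0 (identity of at least 90% over at least 200 bases and 50% of the pseudogene). Transcript lengths are those of the GENCODE canonical transcript within the span of the gene in the table.

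The members and lists were chosen with earlier results of these data known. Full values are given for 28 genes: those called with or without the block, the 10 with the smallest p, the highest per kilobase of each role, 6 paralog pairs and the kinases. In the lists, called genes and the 2 with the smallest p are named, and other list genes named were chosen after their values were seen. The numbers 1 and 2 mark batches in the labels, so they pair the libraries. Each library pools 5 mice, so p-values measure the spread between pools.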

Additional observations from a re-analysis of the deposited data

How the results depend on the processing

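The number of these genes called higher, 2, was 3 in DESeq2 and with the replicate block, 2 with DESeq2's size factors, with protein-coding genes only, without a fold threshold and with pseudogenes summed, 1 without a count filter, 0 with edgeR's filterByExpr and 0 at a fold change over 1.5. With filterByExpr only 1 of 24323 genes was called in the whole table, Eif5b and Eif3a had an adjusted p of 0.0628 each, and 8 of these genes had an unadjusted p under 0.05. Without a filter Eif3a had an adjusted p of 0.0507. The number called lower, 0, was 2 with the block and 2 with the block and pseudogenes summed, and 0 in the other fits that kept all libraries. With single libraries left out, which leaves 1 library assumed to vary like the others, 1 to 3 genes were higher and 0 to 2 lower. Eif3a was lost without NSD library 1, Eif5a2 was added without NSD library 2, and Eif2s3y and Eif2ak2 were lower without SD library 1. The median log2 fold change, 0.044, ran from 0.018 to 0.078 when libraries were left out. The ratio of the eEF1 and eEF2 sums was 1.09, and 1.1 with DESeq2's size factors. Of 336 values of the 28 fully described genes under 12 other fits, 322 stayed on the same side of the threshold, 4 lost the call and 10 gained one. The sign changed in 11 of the values, in 7 genes and never in a value with an adjusted p under 0.05. These were Eif2ak2 (-0.37, and 0.10 without NSD library 1) and 10 values of Eif1a, Eif2ak4, Eif2b5, Eif3c, Eif3j2 and Eif4a1 that were at most 0.06 from 0 before and after. The block changed no call of these genes other than Eif5a2, Eif2s3y and Eif2ak2. Each library held at least 153511705 counts and each group 2 pools, and 5 of the genes were under 1 CPM. What limits the precision was not tested.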
